A study of Mus musculus with 6 samples.

Results

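Mesothelial cells form the sheet that lines the abdominal cavity and covers its organs. They carry traits of both epithelium and mesenchyme, since they hold keratin filaments and a glycoprotein-rich surface but descend from mesoderm, and they secrete the fluid and lubricants in which peritoneal cells float. A wash of the cavity can carry some of these cells along with the leukocytes. Expression of 10 genes known for mesothelial cells was examined in RNA-seq of peritoneal macrophages, out of 54648 gene symbols listed for 6 libraries. The genes were taken by symbol (Msln, Upk3b, Upk1b, Lrrn4, Krt7, Krt8, Krt18, Krt19, Gpm6a and Muc16), and all 10 were present in the deposited table.

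There were 3 libraries from wildtype (WT) and 3 from FOXO3 knockout (FOXO3 KO) mice of strain C57BL/6, aged 6 to 8 weeks and kept on standard chow. All mice received thioglycollate in the abdomen, an irritant that draws in monocytes which become macrophages, and no sorting step is described for the cells washed out of the cavity. No cell type is named to which the knockout was limited. Male and female mice were used, and the labels give neither the sex of each mouse nor whether each numbered library is a separate mouse, so p-values measure only the spread between these libraries.

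Between 28083393 and 36424117 counts were assigned to genes per library. Levels are given as CPM, a gene's count divided by the TMM-scaled library size and multiplied by 1000000. The targeted gene Foxo3 measured 117, 107 and 73.1 CPM across WT 1, 2 and 3. It was only 4.71 CPM for FOXO3 KO 1 and 4.29 CPM for FOXO3 KO 3, but the library labelled FOXO3 KO 2 held 104 CPM, so results are given with and without that library. The macrophage list of 8 genes summed to between 13700 and 18300 CPM in every library, of which Lyz2 alone held 7750 to 11400 CPM. Single genes of the list varied, as Cd68 was 525 CPM in WT 3 and 990 to 1470 CPM elsewhere. Itgam went the other way, with its highest level (1980 CPM) in WT 3. WT 3 stood apart, with 5800 CPM of B cell markers against 365 to 1520 CPM in the other libraries and with the highest level of 37.2% of all genes tested. Xist counts were 31162 in WT 3 and 37681 in FOXO3 KO 3 and at most 5 in the other 4 libraries.

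Summed over the 10 mesothelial genes, expression measured 8.00, 7.13 and 17.4 CPM across WT 1, 2 and 3, whereas FOXO3 KO 1, 2 and 3 held 13.0, 38.6 and 18.0 CPM. The groups overlapped in this sum because of WT 3. The genes fell into 3 patterns over the libraries. Upk3b, Upk1b, Lrrn4 and Krt19 were higher in every FOXO3 KO library than in every WT library. Krt8, Krt18 and Gpm6a were high in WT 3 and in FOXO3 KO 2, and Krt7 lay between these patterns. Msln and Muc16 were close to the limit of detection. In bulk RNA, fewer mesothelial cells and less RNA of these genes per cell cannot be told apart.

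**Figure D1:**
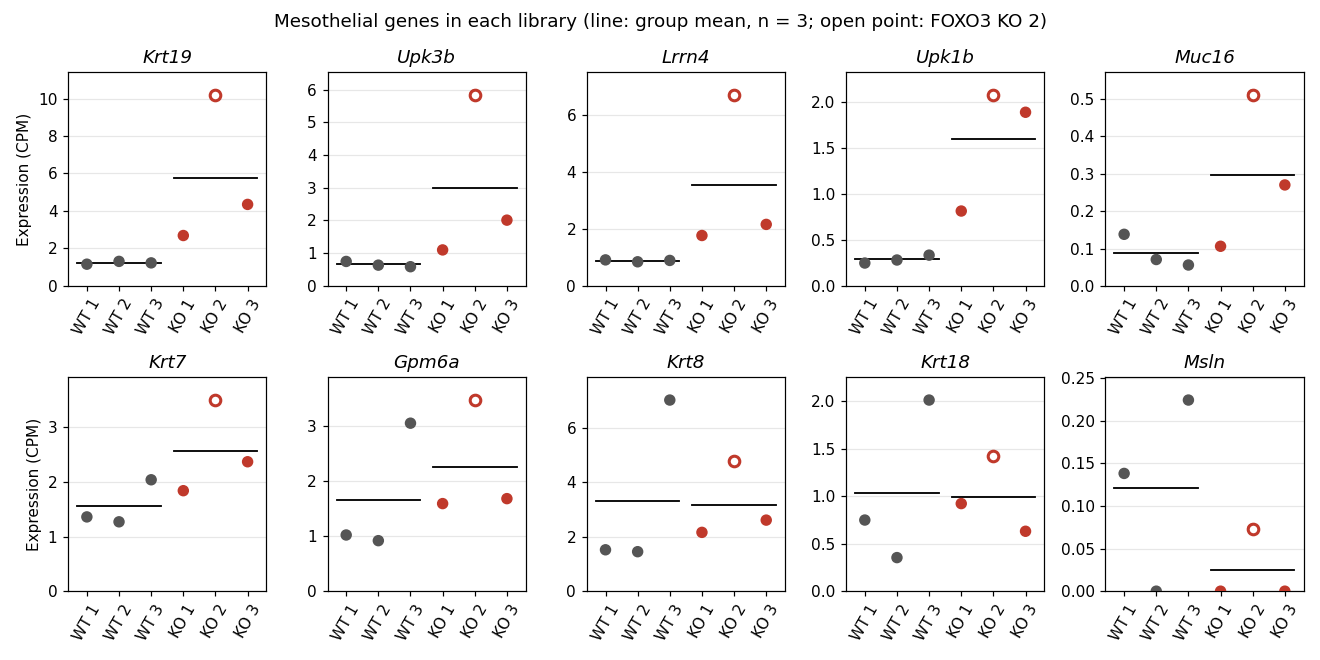
Expression (CPM, each panel with its own axis from 0) of the 10 mesothelial genes in the 3 WT libraries (grey) and the 3 FOXO3 KO libraries (red, with the library labelled FOXO3 KO 2 as an open point); lines mark the group means. Krt19, Upk3b, Lrrn4 and Upk1b show no overlap between the groups, with FOXO3 KO 2 highest, while WT 3 is the highest library for Krt8, Krt18 and Msln.

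For orientation, the genes lie on 8 chromosomes of the mouse genome (GRCm38, RefSeq gene spans). Keratin genes Krt7 (chr15:101412403-101427806), Krt8 (chr15:101996711-102004342) and Krt18 (chr15:102028216-102032026) lie in 1 cluster, and Krt19 lies in the other keratin cluster (chr11:100140810-100145926). Upk3b (chr5:136038496-136044993), Upk1b (chr16:38773182-38800203), Lrrn4 (chr2:132866686-132894010), Gpm6a (chr8:54779434-55060878), Muc16 (chr9:18495445-18674821) and Msln (chr17:25748613-25754378) are dispersed.

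Promoter windows of 300 bases from RefSeq (GRCm38.p6), which span the annotated start, were at hand for 7 of the 10 genes (8 windows, as Gpm6a has a pair). The windows of Krt8 and Krt18 are shown because these genes encode partner filaments and varied together, and that of Upk3b because it followed the other pattern. They are written in the direction of transcription, with capitals for matches to the motifs searched, and lie at chr15:102004293-102004592 (Krt8, minus strand), chr15:102027966-102028265 (Krt18, plus strand) and chr5:136038246-136038545 (Upk3b, plus strand).
Krt8: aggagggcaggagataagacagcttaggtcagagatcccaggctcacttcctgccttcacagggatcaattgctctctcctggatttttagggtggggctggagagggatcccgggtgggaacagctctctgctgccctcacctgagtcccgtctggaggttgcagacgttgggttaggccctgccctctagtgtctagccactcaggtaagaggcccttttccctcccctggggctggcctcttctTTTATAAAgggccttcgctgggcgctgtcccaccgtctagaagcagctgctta
Krt18: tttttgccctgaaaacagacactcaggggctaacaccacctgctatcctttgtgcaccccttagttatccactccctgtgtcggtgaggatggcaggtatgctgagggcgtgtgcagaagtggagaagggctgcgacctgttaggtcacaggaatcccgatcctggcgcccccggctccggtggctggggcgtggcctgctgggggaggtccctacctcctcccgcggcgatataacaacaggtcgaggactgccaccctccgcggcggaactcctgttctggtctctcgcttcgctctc
Upk3b: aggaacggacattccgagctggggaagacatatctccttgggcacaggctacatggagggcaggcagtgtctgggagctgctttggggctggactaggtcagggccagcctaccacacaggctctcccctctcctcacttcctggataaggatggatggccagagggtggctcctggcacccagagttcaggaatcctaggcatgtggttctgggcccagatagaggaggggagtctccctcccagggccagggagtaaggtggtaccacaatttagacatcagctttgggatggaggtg

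Motifs were searched on both strands. The TATA box TATAAA is in the Krt8 window, on both strands in 1 overlapping stretch, and TATAAA is in 2 of the 8 windows of the mesothelial genes and in 13.6% of all 32851 windows of this length. The FoxO motif TGTTTAC was found in 0 of the 8 windows of the mesothelial genes and in 3.65% of all windows. The GC box GGGCGG was in 2 of the 8 windows (35.7% of all), and the core GCGTGGG, which WT1 and EGR factors bind, in 0 of 8 (5.04% of all). These matches describe the letters of the windows and do not show where a factor binds.

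The keratin Krt19, a filament protein of simple epithelia and mesothelium, measured 1.16, 1.31 and 1.23 CPM across WT 1, 2 and 3 (42, 37 and 44 counts), whereas FOXO3 KO 1, 2 and 3 held 2.69, 10.2 and 4.35 CPM (76, 279 and 145 counts). The WT libraries were close to each other and below every FOXO3 KO library, and FOXO3 KO 2 was the highest. The WT mean was 1.23 ± 0.0712 CPM (SD, n = 3), the mean of all FOXO3 KO libraries 5.74 ± 3.93 CPM (SD, n = 3), and that of FOXO3 KO 1 and 3 alone 3.52 ± 1.17 CPM (SD, n = 2). On the log2 scale the difference was 2.22 (standard error 0.52) with every library and 1.51 (standard error 0.33) without FOXO3 KO 2. Krt19 is in the panel of changed genes that the study drew from these libraries, with n = 3 stated. The panel's fold change for Krt19 lies nearer to the estimate without FOXO3 KO 2 than to that with every library.

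Upk3b, a membrane glycoprotein of the uroplakin family that is typical of mesothelium, measured 0.748, 0.635 and 0.587 CPM across WT 1, 2 and 3. In FOXO3 KO 1, 2 and 3 it was 1.10, 5.84 and 2.01 CPM. Each FOXO3 KO library lay above each WT library, FOXO3 KO 1 by the least. The exact 95% Poisson interval of FOXO3 KO 1 (31 counts, 0.746 to 1.56 CPM) overlapped those of all WT libraries. Of these, that of WT 1 (27 counts, 0.493 to 1.09 CPM) reached highest. The intervals of FOXO3 KO 2 and 3 lay above all WT intervals. Such intervals cover counting error only. On the log2 scale Upk3b differed by 2.17 (standard error 0.65), and by 1.24 (standard error 0.39) without FOXO3 KO 2.

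Upk1b, a tetraspanin that pairs with other uroplakins in urothelium, measured 0.249, 0.282 and 0.335 CPM across WT 1, 2 and 3, whereas FOXO3 KO 1, 2 and 3 held 0.815, 2.08 and 1.89 CPM. Here FOXO3 KO 3 was nearly as high as FOXO3 KO 2. Its log2 fold change of 2.45 (standard error 0.44) was the largest of the mesothelial genes tested over all libraries, and without FOXO3 KO 2 it was 2.22 (standard error 0.48). These levels rest on 8 to 12 counts in each WT library and on 23 to 63 in each FOXO3 KO library. Upk1b therefore passed edgeR's filter on low counts (minimum count 10) through FOXO3 KO, so its being tested is not independent of its direction. The Poisson interval of FOXO3 KO 1 (0.517 to 1.22 CPM) overlapped those of WT 2 (up to 0.556 CPM) and WT 3 (up to 0.586 CPM). Those of FOXO3 KO 2 and 3 lay above all WT intervals.

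Lrrn4, a leucine-rich repeat membrane protein, measured 0.914, 0.847 and 0.895 CPM across WT 1, 2 and 3, whereas FOXO3 KO 1, 2 and 3 held 1.77, 6.71 and 2.16 CPM. The groups did not overlap, and the Poisson interval of every FOXO3 KO library lay above those of every WT library, as for Krt19. On the log2 scale it differed by 2.0 (standard error 0.56), and by 1.15 (standard error 0.29) without FOXO3 KO 2.

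Past the fold change of 1.5 and FDR of 0.05 that the study used, edgeR's quasi-likelihood test called 0 of the 8 mesothelial genes tested, and 0 of all 15608 genes (0%). Foxo3 itself did not pass this test (log2 fold change -1.4, adjusted p = 0.859). Nor did it without FOXO3 KO 2 (-4.46, adjusted p = 0.105), so a gene not called here is not shown to be unchanged. Adjusted p of Upk3b, Upk1b, Lrrn4 and Krt19 was between 0.714 and 0.731 over all libraries and between 0.793 and 0.994 without FOXO3 KO 2. With p under 0.05 before adjustment and the fold kept, all 4 genes were higher in FOXO3 KO (4 of 8, against 3.28% of all genes tested), and so they were without FOXO3 KO 2 (4 of 8, against 2.71%). Upk1b is in this count only because its FOXO3 KO libraries passed the filter on low counts. Every FOXO3 KO library lay above every WT library for the same 4 genes, against 7.00% of all genes tested, and for 4 of 8 without FOXO3 KO 2, against 11.0%. An exact two-sided permutation test over libraries gave each of the 4 genes p = 0.10, the smallest that 3 libraries against 3, or 3 against 2, allow. Any gene without overlap between 3 libraries and 3 gets this p, so it adds nothing to the lack of overlap.

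DESeq2 called Upk1b (adjusted p = 0.00273) and Krt19 (adjusted p = 0.00647) higher in FOXO3 KO, against 0.852% of the genes it tested, and gave Lrrn4 an adjusted p of 0.0568 and Upk3b one of 0.0751. Without FOXO3 KO 2 it called Krt19 (adjusted p = 0.0228), against 0.429% of the genes, and gave Upk1b an adjusted p of 0.0973. Upk1b and Krt19 thus passed in some of the tools used and not in others, while Upk3b and Lrrn4 passed in none of the 16 alternatives.

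**Figure D2:**
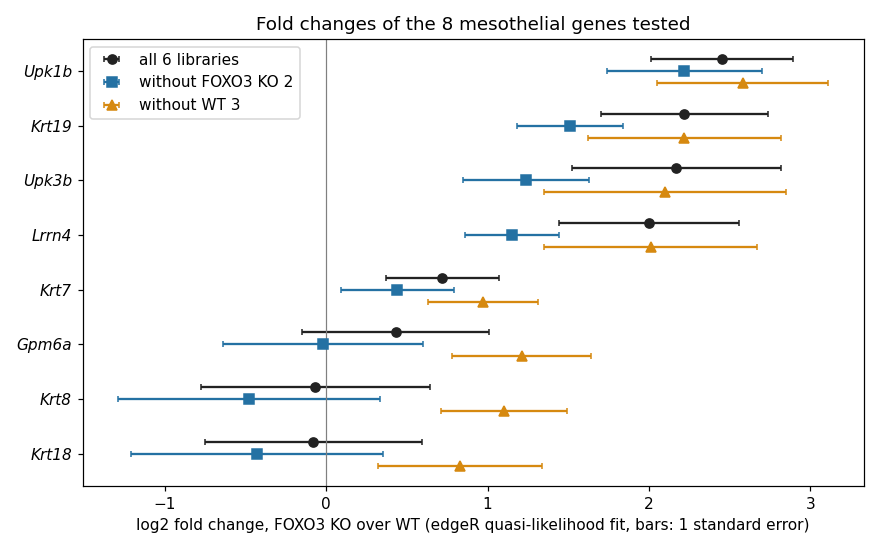
Log2 fold change (FOXO3 KO over WT, edgeR fit, bars of 1 standard error) of the 8 mesothelial genes tested, over all 6 libraries (circles), without FOXO3 KO 2 (squares) and without WT 3 (triangles). Upk1b, Krt19, Upk3b and Lrrn4 stay above 1 in each, while Krt8 and Krt18 move from below 0 to 1.10 and 0.83 without WT 3.

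Krt7, a keratin of simple epithelia, measured 1.36, 1.27 and 2.04 CPM across WT 1, 2 and 3, whereas FOXO3 KO 1, 2 and 3 held 1.84, 3.50 and 2.37 CPM. The groups overlapped at WT 3 and FOXO3 KO 1. The difference on the log2 scale was 0.72 (edgeR's quasi-likelihood test, standard error 0.35, adjusted p = 0.839), and 0.44 (standard error 0.35) without FOXO3 KO 2. Its deposited counts were not whole numbers in any of the 6 libraries, and its exons overlap those of the antisense gene Gm671, so reads of the pair may not be separated.

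Krt8 and its filament partner Krt18 had their highest level in WT 3. Krt8 measured 1.52, 1.45 and 7.02 CPM across WT 1, 2 and 3, whereas FOXO3 KO 1, 2 and 3 held 2.16, 4.78 and 2.61 CPM. Krt18 measured 0.748, 0.353 and 2.01 CPM across WT 1, 2 and 3, whereas FOXO3 KO 1, 2 and 3 held 0.921, 1.42 and 0.630 CPM. WT 3 thus held 4.73 times the mean Krt8 of the other WT libraries and 3.66 times their mean Krt18, and the groups overlapped. No counts were assigned to the Krt8 pseudogene listed in the table (Krt8-ps) in any library, and the exons of Krt8 overlap those of Gm36026, a noncoding RNA on the opposite strand.

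Gpm6a, a membrane glycoprotein also abundant in neurons, measured 1.02, 0.917 and 3.05 CPM across WT 1, 2 and 3, whereas FOXO3 KO 1, 2 and 3 held 1.59, 3.47 and 1.68 CPM. It was therefore high in both WT 3 and FOXO3 KO 2. Log2 fold changes over all libraries were -0.07 (standard error 0.71) for Krt8, -0.08 (standard error 0.67) for Krt18 and 0.43 (standard error 0.58) for Gpm6a, with adjusted p between 0.893 and 0.985 by edgeR's quasi-likelihood test. Without WT 3 they were 1.10, 0.83 and 1.21, and without FOXO3 KO 2 they were -0.48, -0.43 and -0.02, so the direction of these 3 genes changed with the libraries included, and that of Krt8 and Krt18 also with the model (0.23 and 0.15 by limma-voom over all libraries).

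Msln, the mesothelin after which mesothelial tumours are often typed, had 5, 0 and 8 counts in WT 1, 2 and 3 and 0, 2 and 0 counts in FOXO3 KO 1, 2 and 3. Its deposited values were not whole numbers in 3 of the 6 libraries, so these counts are rounded estimates. A count of 0 allows a level of up to 0.106 CPM for WT 2, 0.106 CPM for FOXO3 KO 1 and 0.0899 CPM for FOXO3 KO 3. Muc16, the large mucin that binds mesothelin, had 5, 2 and 2 counts in WT and 3, 14 and 9 counts in FOXO3 KO, with FOXO3 KO 2 highest. Neither gene passed edgeR's filter on low counts, so 8 of the 10 genes were tested, and at this depth neither differed after adjustment. With no filter, the log2 fold change of Muc16 was 1.69 (standard error 0.72, unadjusted p = 0.0439, adjusted p = 0.771 by the same edgeR test). That of Msln was -2.26 (standard error 1.35, unadjusted p = 0.13, adjusted p = 0.771). Msln, a defining marker of the cell type, was thus at or near 0 in every library, while Upk3b, Lrrn4 and Krt19 were detected in all 6.

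The mesothelial genes also differed in level when counts were set on the length of their exons. On this scale (CPM per kilobase of all annotated exons), mean levels in WT were highest for Krt8 (1.70), followed by Krt18 (0.722), Krt19 (0.665) and Gpm6a (0.517). Levels of Lrrn4, Krt7, Upk3b and Upk1b in WT were between 0.138 and 0.238, and those of Msln and Muc16 were 0.0394 and 0.00335. In FOXO3 KO, Krt19 came first with 3.10, then Krt8 with 1.63 and Lrrn4 with 0.955. Over FOXO3 KO 1 and 3 alone, Krt19 was at 1.90 and Krt8 at 1.22, followed by Upk1b at 0.647, Krt18 at 0.540 and Lrrn4 at 0.529. The mean of Krt8 in WT rested on WT 3 (3.59), since WT 1 and 2 were at 0.776 and 0.741. These were near the level of Krt19 there (0.625 and 0.706). The means of Krt18 and Gpm6a in WT also rested on WT 3 (1.40 and 0.949). In WT 1 and 2 Krt18 was at 0.521 and 0.246, below Krt19, and Gpm6a was at 0.317 and 0.285.

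Over the 8 mesothelial genes tested, the median log2 fold change was 1.36, against -0.01 over all genes tested. Without FOXO3 KO 2 the medians were 0.79 and -0.02. Of the 8 genes, 6 were above 0 over all libraries and 5 without FOXO3 KO 2. The 8 genes include Upk1b, which passed the filter on low counts through FOXO3 KO, and leave out Msln and Muc16. FOXO3 KO 2, in which Foxo3 was at the WT level, had the highest expression of 6 of the 8 genes tested (Upk3b, Upk1b, Lrrn4, Krt7, Krt19 and Gpm6a), as against 10.9% of all genes. In that library Upk3b was 8.89 times, Krt19 8.26 times, Lrrn4 7.58 times and Upk1b 7.20 times the WT mean.

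Libraries with and without Xist were also compared apart. Between the libraries with Xist, FOXO3 KO 3 over WT 3, the ratio was 3.42 for Upk3b, 5.63 for Upk1b, 2.41 for Lrrn4 and 3.53 for Krt19. For the other libraries, FOXO3 KO 1 and 2 over WT 1 and 2, the ratios of the means were 5.02, 5.45, 4.82 and 5.21 in the same order. With FOXO3 KO 1 alone over WT 1 and 2 they were 1.59, 3.07, 2.01 and 2.18. For Krt8 the ratio was 0.372 with Xist and 2.34 without, and for Gpm6a it was 0.551 and 2.61. These ratios have 1 or 2 libraries a side and were not tested.

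As a description over 6 libraries that share their group labels, Upk3b, Lrrn4, Krt19 and Muc16 varied together. Their Pearson's r of log2(CPM + 0.5) was between 0.94 and 0.99, though Muc16 had at most 14 counts in any library. Upk1b had r between 0.87 and 0.95 with Upk3b, Lrrn4, Krt19 and Muc16. Krt8, Krt18 and Gpm6a varied together too, with r between 0.88 and 0.95, but had r between 0.21 and 0.62 with Upk3b, Lrrn4 and Krt19. With Upk1b their r was between 0.13 and 0.52. Krt7 had r of 0.89 with Upk3b, 0.70 with Krt8 and 0.86 with Gpm6a. Msln had r between -0.41 and -0.23 with Upk3b, Upk1b, Lrrn4 and Krt19, and of 0.73 with Krt18, 0.59 with Krt8 and 0.43 with Gpm6a. These values of Msln rest on at most 8 counts in any library.

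Among 1237 genes of sufficient level and range, the 10 most like the mean of the mesothelial genes over the 6 libraries were Smim1, Nfib, Podxl, Antxr1, Ptprd, Gucy1a1, Gfpt2, Wwtr1, Bmp1 and Neo1, with r between 0.973 and 0.994. All 10 were highest in FOXO3 KO 2, which follows from the choice, since the mean they were matched to was highest there. Podxl, a sialomucin of podocytes and mesothelium, measured 0.720, 0.812 and 1.54 CPM across WT 1, 2 and 3, whereas FOXO3 KO 1, 2 and 3 held 1.31, 6.75 and 2.46 CPM. With so few libraries, many genes reach high values of r.

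Of 12 further mesothelial genes, 9 were tested, and edgeR's quasi-likelihood test called 0. All 9 were above 0, with a median log2 fold change of 2.09, and 7 were higher in FOXO3 KO at an unadjusted p under 0.05 with a fold over 1.5, the rule for unadjusted counts in all lists (3.28% of all genes tested). Without FOXO3 KO 2 the median was 1.40, and 6 of 9 passed (2.71% of all genes). Some of these genes, such as Bnc1 (6, 5 and 12 counts in WT), were tested only because FOXO3 KO libraries passed the filter on low counts. Wt1, the transcription factor of the mesothelial lineage, measured 1.83, 1.34 and 1.17 CPM across WT 1, 2 and 3, whereas FOXO3 KO 1, 2 and 3 held 3.61, 13.2 and 5.40 CPM. It had the same order of libraries as Krt19 within FOXO3 KO, and no overlap between the groups.

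Pkhd1l1, a large membrane receptor-like protein, lay between 0.867 and 1.44 CPM across WT, whereas FOXO3 KO 1, 2 and 3 held 2.73, 13.1 and 5.58 CPM. Dmkn, a secreted protein of epithelia, was between 0.447 and 0.741 CPM across WT and between 2.13 and 4.96 CPM in FOXO3 KO. Igfbp6, which binds insulin-like growth factor, was 2.09 higher on the log2 scale (standard error 0.48), or 1.64 without FOXO3 KO 2. Wt1, Pkhd1l1 and Dmkn are in the study's panel of changed genes, which was drawn from these libraries, so they are not independent evidence. Aldh1a2, which makes retinoic acid, overlapped between the groups at 12.1 to 19.2 CPM across WT and 16.4 to 26.9 CPM in FOXO3 KO. Calb2, which encodes calretinin, the other common mesothelial stain, had 1 count in WT 2 and 0 counts in the other libraries.

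**Figure D3:**
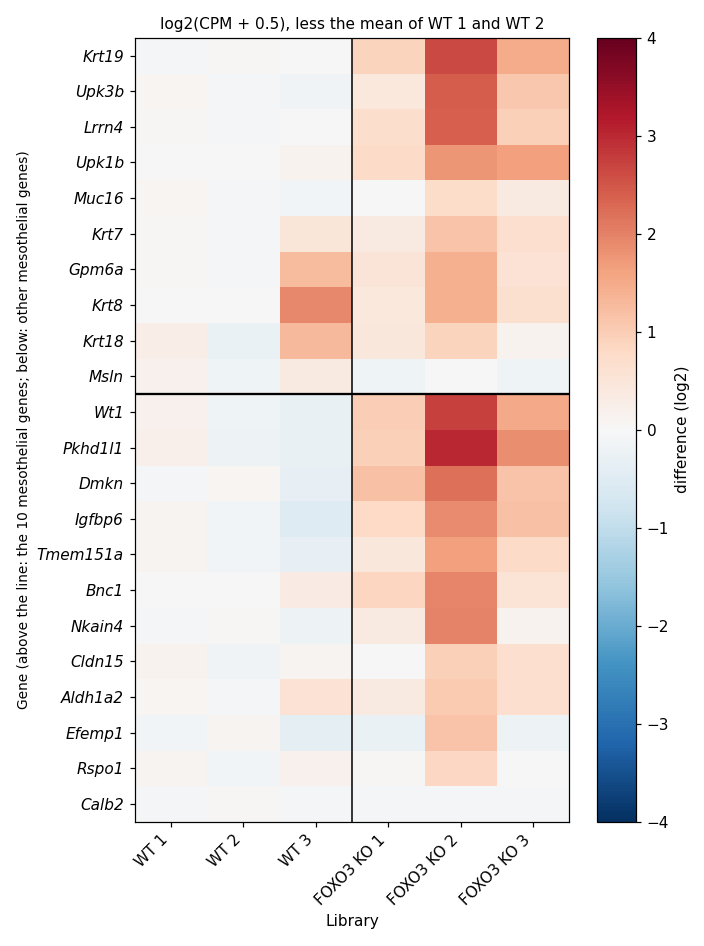
Difference of log2(CPM + 0.5) from the mean of WT 1 and WT 2 for the 10 mesothelial genes (above the line) and 12 further mesothelial genes (below), in each library. FOXO3 KO 2 is the darkest column for most genes, and Krt8, Krt18 and Gpm6a are higher in WT 3 than in WT 1 and 2, where Wt1 (1.17 CPM) and Upk3b (0.587 CPM) are not.

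Transcription factors of the lineage were compared as a list of 10, of which 5 were tested and 0 were called. Their median log2 fold change was 2.25 (1.35 over 6 tested without FOXO3 KO 2), and Wt1, Bnc1 and Hand2 were higher at an unadjusted p under 0.05. Of these, Wt1 and Bnc1 are also among the 12 further mesothelial genes above and were counted there, so the lists are not independent. Bnc1 (6, 5 and 12 counts in WT 1, 2 and 3) and Hand2 (4, 10 and 6 counts) passed the filter on low counts through FOXO3 KO. The median of 2.25 is the value of Bnc1. Gata6, which mesothelium shares with resident peritoneal macrophages, reached 41.2 CPM for WT 3 and 16.9 CPM for FOXO3 KO 2, and was between 3.49 and 6.57 CPM elsewhere. The same libraries led for Krt8 and Gpm6a.

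Of 8 lubricant and surface glycan genes of the serosa, 6 were tested and 0 were called, with a median log2 fold change of 0.50. Prg4, the lubricin of serosal and joint fluid, reached 2860 CPM for WT 3 and 295 CPM for FOXO3 KO 2, and was between 59.8 and 118 CPM in the other libraries. Gata6, which resident peritoneal macrophages share, was highest in the same libraries, and which cells held the Prg4 RNA was not tested. Slpi, a secreted protease inhibitor, was 340 CPM in WT 3 and between 39.5 and 91.2 CPM elsewhere. Pdpn and Cd44 of this list went the other way and were lowest in WT 3. Pdpn was 23 CPM there and 76.1 to 151 CPM elsewhere, and Cd44 was 287 CPM there and 517 to 616 CPM elsewhere. Has1, which makes hyaluronan, had at most 0.0600 CPM in any library. Podxl was the 1 gene of this list higher in FOXO3 KO at an unadjusted p under 0.05, but it overlapped between the groups, and without FOXO3 KO 2 it did not pass (log2 fold change 1.77 with and 0.88 without that library).

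Genes of other cell types varied along with these values. The 8 fibroblast genes summed to 76.4, 53.5 and 41.4 CPM across WT 1, 2 and 3, whereas FOXO3 KO 1, 2 and 3 held 93.9, 484 and 170 CPM, the same order of FOXO3 KO libraries as for Krt19. Of them 6 were tested, 0 were called and 4 were higher at an unadjusted p under 0.05, with or without FOXO3 KO 2. The median log2 fold change of the fibroblast genes was 2.03, and 1.15 without FOXO3 KO 2. Without that library 5 of the 6 were above 0, Col3a1 was at 0.52 and Pdgfrb at -0.56. All 8 fibroblast genes were highest in FOXO3 KO 2. There Col1a2, a chain of type I collagen that is also in the study's panel, was 146 CPM (12.2 to 21.1 CPM in WT). Dcn, a proteoglycan, was 90.1 CPM there (7.32 to 14.0 CPM in WT). The 6 smooth muscle genes (3 tested, 0 called, Acta2 and Des higher at that p) summed to 2.71 to 4.71 CPM across WT, whereas FOXO3 KO 1, 2 and 3 held 7.12, 18.9 and 11.8 CPM. The median log2 fold change of the smooth muscle genes was 1.60, and 1.42 without FOXO3 KO 2. Cnn1 was at most 0.0365 CPM in every library.

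The 8 neutrophil genes (6 tested, 0 called, 3 higher at that p) had another order, with sums of 125 to 194 CPM across WT, whereas FOXO3 KO 1, 2 and 3 held 465, 193 and 385 CPM. Of the 8 macrophage and 8 B cell genes all were tested and 0 were called, with medians of 0.12 and -1.87 on the log2 scale (0.05 and -1.76 without FOXO3 KO 2, -0.06 and -0.49 without WT 3). For the neutrophil genes the median was 1.69, and 1.93 without FOXO3 KO 2. Genes of gut and other epithelia had another order in their sum. Of these 8 genes 4 were tested, 0 were called and Krt14, of basal epithelium, was higher at that p, with every FOXO3 KO library above every WT library (0 genes at that p without FOXO3 KO 2). Krt14 passed the filter on low counts through FOXO3 KO, with 3, 7 and 1 counts in WT 1, 2 and 3. The 8 genes summed to 4.42 CPM in FOXO3 KO 2 and 14.1 CPM in WT 3, Epcam was 0.657 and 5.14 CPM there, and Krt5 was at 0 in every library. The 8 adipocyte genes (0 tested) summed to at most 0.978 CPM, with Cfd and Lep at 0 in every library. Among 8 endothelial genes (4 tested, 0 called) Emcn and Cldn5 were at 0 in every library, and the sum was between 108 and 143 CPM. That sum hid opposite shifts. Pecam1 was 108 CPM in WT 3 and 6.48 to 25 CPM elsewhere. Vwf was 26.4 CPM in WT 3 and 73.7 to 118 CPM in the other libraries. The part of fibroblasts, B cells or other cells in the levels of the mesothelial genes was not tested.

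**Figure D4:**
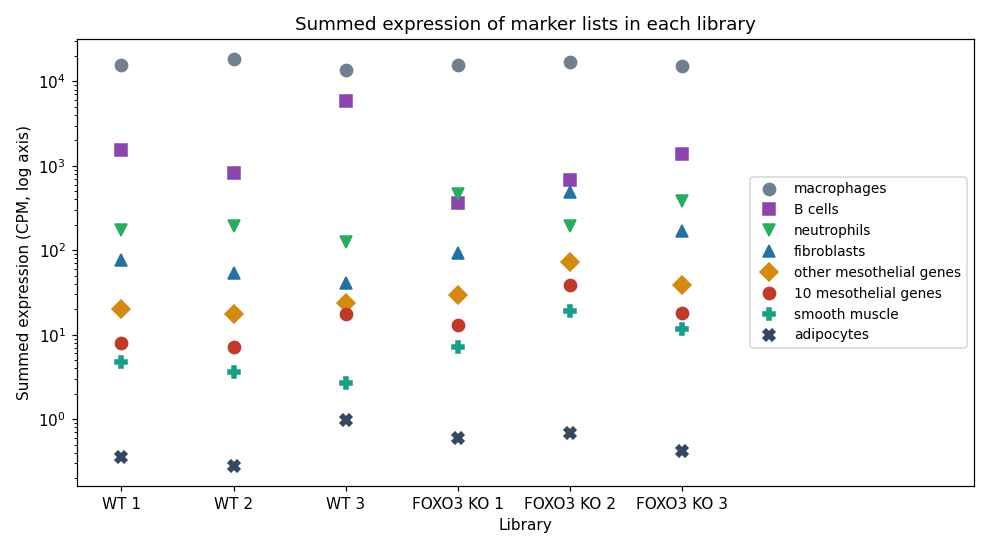
Summed expression (CPM, log axis) of marker lists of 8 cell types or gene groups in each library. Macrophage genes stay between 13700 and 18300 CPM, the 10 mesothelial genes range from 7.13 to 38.6 CPM with FOXO3 KO 2 highest, as for the fibroblast genes, and B cell genes peak in WT 3.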

How the data were processed

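RNA-seq libraries of thioglycollate-elicited peritoneal cells (paired reads of 76 bp) were grouped by genotype from their titles. The authors deposited estimated counts per gene symbol without normalization. The submitters' processing notes name STAR 2.6.1d, kallisto 0.46.0, DESeq2 and the build mm10, while the annotation and the way reads were assigned to genes are, in the sources used here, not given. Values were rounded before testing (81.4% were whole to within 0.01). All pairs of libraries differed by more than sampling noise.

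The genotypes were compared in R 4.3.3 by edgeR 4.0.16 (filterByExpr, TMM, glmQLFit and glmQLFTest), with p-values adjusted by Benjamini-Hochberg across every gene tested, and called at FDR under 0.05 and fold over 1.5. Standard errors were derived from the log2 estimate and the F statistic. The code was tested on simulated data. DESeq2 1.42.0, limma-voom 3.58.1, other factors, other filters, the replicate block and each library left out were alternatives, and 2 joint settings were added after seeing the data. Exon lengths came from GENCODE M21, and gene spans and promoters from RefSeq, both on GRCm38, of which mm10 is the UCSC name.

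The mesothelial genes and all lists were chosen with earlier results of these data known, so no list was tested. Named genes were the mesothelial genes, Foxo3, the 4 most expressed genes of each further list, those in the study's panel, those in counts of 5 or fewer past a test, and the 10 genes most like the mean (mean CPM of at least 1, log2 range of at least 2). Aldh1a2, Calb2, Has1, Cnn1, Krt5, Epcam and genes at 0 in marker lists were named after their values were seen.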

Additional observations from a re-analysis of the deposited data

How the results depend on the processing

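Upk3b, Upk1b, Lrrn4, Krt19 and Krt7 kept their direction under all 16 alternatives, with log2 fold changes of 1.16 to 2.57, 2.22 to 2.76, 1.15 to 2.32, 1.51 to 2.55 and 0.44 to 0.97. The number of mesothelial genes called was 0 in the main fit, 2 by the likelihood ratio test, 2 by DESeq2 and 1 by DESeq2 without FOXO3 KO 2. Over all genes, 0 were increased and 0 decreased, against 102 and 7 by the likelihood ratio test, 153 and 7 by DESeq2, 81 and 27 by DESeq2 without FOXO3 KO 2, and 3 and 1 by the quasi-likelihood test without FOXO3 KO 2 and WT 3. The quasi-likelihood test gave 512 increased and 156 decreased genes at an unadjusted p under 0.05 with a fold over 1.5 (887 genes had such a p at any fold), and limma-voom called 0. The median log2 fold change of the mesothelial genes, 1.36, was between 0.79 (without FOXO3 KO 2) and 1.61 (without WT 3) with a library left out, and 0.77 by DESeq2 without FOXO3 KO 2.

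Krt8 changed sign to 0.23 with limma-voom, 0.26 with the replicate block and 0.68 without FOXO3 KO 2 and WT 3, and was between -0.48 and 1.10 with 1 library left out. Krt18 changed sign to 0.15, 0.14 and 0.46 in the same settings, and was between -0.48 and 0.83 with 1 library left out. Gpm6a changed sign without FOXO3 KO 2, to -0.02 in edgeR and -0.01 in DESeq2, and was up to 1.21 without WT 3. Beyond the libraries left out, the cause was not tested.

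Libraries with the same number did not all deviate together (r of 0.339, -0.061 and 0.567 for numbers 1, 2 and 3), WT 2 was closest to FOXO3 KO 1, and so the numbers were not taken to pair the libraries. With the replicate number as a block, 0 genes were called and the median of the mesothelial genes was 1.21. Depth limits Msln, Muc16 and Upk1b in WT, which rest on 12 counts or fewer per library there.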

Other observations

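Keratins outside the mesothelial set were not alike. Of 14 other keratins, 11 had a count in some library, 4 were tested and 0 were called by edgeR's quasi-likelihood test. Krt80, a type II keratin of epithelia, was far above the mesothelial keratins, at 110, 99.5 and 119 CPM across WT 1, 2 and 3, whereas FOXO3 KO 1, 2 and 3 held 111, 143 and 149 CPM. Its level varied little over the libraries and differed by 0.30 on the log2 scale (edgeR, standard error 0.15, adjusted p = 0.839). Krt222 was 43.3 CPM in WT 3 and between 1.45 and 7.80 CPM elsewhere. Krt14, which marks basal epithelium, was between 0.0280 and 0.247 CPM in WT and between 0.390 and 0.461 CPM in FOXO3 KO, with an unadjusted p of 0.0262 by edgeR, and 0.0624 without FOXO3 KO 2. With 3, 7 and 1 counts in WT 1, 2 and 3, it was tested only because its FOXO3 KO libraries passed the filter on low counts. The basal and stratified keratins Krt5, Krt6a and Krt17 had no count in any library.

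Of the other uroplakins, Upk3a had no count in any library, Upk2 had at most 0.0300 CPM and Upk3bl at most 0.0559 CPM. Upk1a was between 0.109 and 0.615 CPM, highest in WT 3. In that library it was near Upk3b (0.587 CPM) and above Upk1b (0.335 CPM). The mean of Upk1a in FOXO3 KO was 0.215 CPM, below those of Upk3b (2.98 CPM) and Upk1b (1.59 CPM).

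Among 14 polarity and junction genes, 10 were tested and 0 were called, with a median log2 fold change of 0.41 (0.24 without FOXO3 KO 2 and 0.76 without WT 3). Cdh2, the N-cadherin of mesothelium and fibroblasts, measured 0.776, 0.635 and 0.475 CPM across WT 1, 2 and 3, whereas FOXO3 KO 1, 2 and 3 held 1.59, 5.29 and 3.30 CPM, with no overlap and the same order of FOXO3 KO libraries as Krt19. Its log2 fold change was 2.43 (standard error 0.50), and 1.96 without FOXO3 KO 2. Ocln and Tjp1, of tight junctions, were instead highest in WT 3, at 14.5 and 11.0 CPM, followed by FOXO3 KO 2 at 4.96 and 8.98 CPM, as for Krt8.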
